A study of Mus musculus with 15 samples.

Results

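The genes described here are the receptor, signalling and target genes of leukaemia inhibitory factor (LIF): Lifr, Il6st, Jak1, Stat3, Socs3, Pim1, Pim3, Gbx2 and Bcl3. They were chosen by symbol from the table of estimated counts, and each of the 9 symbols had 1 row among the 37310 genes. In mouse embryonic stem cells, LIF binds a pair of receptor chains, LIFR and gp130 (the product of Il6st). The JAK kinases bound to these chains phosphorylate STAT3, which enters the nucleus and raises genes that keep the cells self-renewing. SOCS3 is a STAT3 target that inhibits the receptor complex in turn. Pim1, Pim3 and Gbx2 are known targets whose expression from a transgene helps mouse stem cells to self-renew with little or no LIF, and Bcl3 encodes an I-kappa-B-like partner of NF-kappa-B proteins that STAT3 also induces.

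RNA was sequenced in 15 libraries of J1 cells, a mouse embryonic stem cell line, all grown in medium with 15% serum and 1000 U/ml LIF. One experiment compared Taf5l-KO and Taf6l-KO cells with wild-type cells (WT-Taf), and another compared Myc-KO cells with their own wild type (WT-Myc), with 3 libraries in each group. The products of Taf5l and Taf6l belong to SAGA, a complex that helps activators to start transcription, and MYC drives genes of growth. No number of clones or cultures is given, so the p-values reflect variation among these libraries that could be technical, and the Myc-KO libraries share a code in their descriptions whose meaning is not given. LIF was in the medium of every group, so no group shows the cells without the signal.

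Library totals ranged from 14935631 to 27650813 estimated counts, and the 9 genes had between 457 and 3882 counts in a library. Each knockout had less RNA of its target than its wild type in every library. Taf5l had 41.8 to 43.0 CPM (counts scaled with TMM factors from within the experiment) in Taf5l-KO, against 84.5 to 88.1 CPM in WT-Taf. Taf6l had 6.06 to 7.17 CPM in Taf6l-KO, against 25.2 to 26.9 CPM in WT-Taf, and Myc had 28.0 to 31.0 CPM in Myc-KO, against 64.7 to 68.8 CPM in WT-Myc. Small non-coding RNAs took 1.99% to 3.10% of counts in the Taf experiment and 0.0205% to 0.0568% in the Myc experiment, although the labels give the same protocol for both. The experiments were therefore scaled and tested separately, and a level is compared only with its own wild type unless a sentence says otherwise. The summed level of 10 stem cell identity genes was 4982 to 5080 CPM in Taf5l-KO, 4860 to 4958 in Taf6l-KO and 5503 to 5584 in WT-Taf. In the other experiment it was 7474 to 7785 CPM in Myc-KO, against 6809 to 7010 CPM in WT-Myc. Of these 10 genes, 1 was called higher and 5 lower (edgeR adjusted p under 0.05) in Taf5l-KO, 0 and 8 in Taf6l-KO, and 4 and 0 in Myc-KO. Over all tested genes, 17.4% were called higher and 15.9% lower in Taf5l-KO, 19.1% and 18.2% in Taf6l-KO, and 15.2% and 19.5% in Myc-KO. For 10 primitive endoderm genes the sums were 454 to 460 CPM in Taf5l-KO, 538 to 550 in Taf6l-KO and 344 to 348 in WT-Taf, and 759 to 802 CPM in Myc-KO, against 793 to 818 CPM in WT-Myc. These sums rest mainly on the matrix genes Sparc, Lama1, Lamb1 and Col4a1, which with Gata4 were called higher in both Taf knockouts, while Gata6 was called lower in both and Pdgfra in Taf5l-KO. Gata6, a defining factor of primitive endoderm, had 0.104 to 0.204 CPM in Taf5l-KO and 0.135 to 0.221 in Taf6l-KO, against 0.696 to 0.812 in WT-Taf. In Myc-KO, Gata4 was called higher and Lama1 and Col4a1 lower. Sums of 10 feeder fibroblast genes were 6.11 to 7.44 CPM in Taf5l-KO, 7.17 to 8.59 in Taf6l-KO and 9.94 to 10.8 in WT-Taf. They were 7.52 to 9.28 CPM in Myc-KO, against 6.565 to 8.51 CPM in WT-Myc. Thy1 was called lower in both Taf knockouts, and Dcn and Lum were at 0 in all groups. Since these are bulk samples, fewer cells of a type and less RNA per cell cannot be told apart, and the part of these marker sums in the results was not tested.

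Of the 5 STAT3 targets among the 9 genes, Pim1, Pim3 and Gbx2 fell in Taf5l-KO and all 5 fell in Taf6l-KO, by 0.19 to 0.66 on the log2 scale. Of all tested genes, 15.9% were called lower in Taf5l-KO and 18.2% in Taf6l-KO, and the 9 genes were chosen with earlier results of these data known. Of the 23 other STAT3 targets tested some rose and others fell. Stat3 rose by 0.11 in Taf5l-KO and by 0.22 in Taf6l-KO, and Lifr and Il6st did not pass the test in either. In Myc-KO, Lifr, Il6st, Gbx2 and Bcl3 fell and Pim3 rose, the last just past the threshold, while Stat3, Jak1, Socs3 and Pim1 did not pass the test.

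Of the 9 genes, 2 were higher and 3 lower in Taf5l-KO than in WT-Taf (edgeR's quasi-likelihood test, Benjamini-Hochberg adjusted p under 0.05), where 33.2% of the 15743 tested genes passed in either direction, 17.4% higher and 15.9% lower. In Taf6l-KO, 1 was higher and 5 lower, against 37.2% of all tested genes, 19.1% higher and 18.2% lower. In Myc-KO, 1 was higher and 4 lower, against 34.8% of 14563 tested genes, 15.2% higher and 19.5% lower. The median log2 fold change of the 9 genes was -0.09 in Taf5l-KO, -0.19 in Taf6l-KO and -0.14 in Myc-KO, beside 0.00, 0.02 and -0.00 over all tested genes. In Taf5l-KO all 3 libraries lay below all 3 WT-Taf libraries for 6 of the 9 genes and above them for 2, while 22% and 22.7% of all tested genes did so. In Taf6l-KO this held for 5 genes below and 3 above, beside 23.5% and 25.4% of all tested genes, and in Myc-KO for 4 below and 0 above, beside 26.7% and 22.9%. Both Taf knockouts are set against the same WT-Taf libraries.

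**Figure D1:**
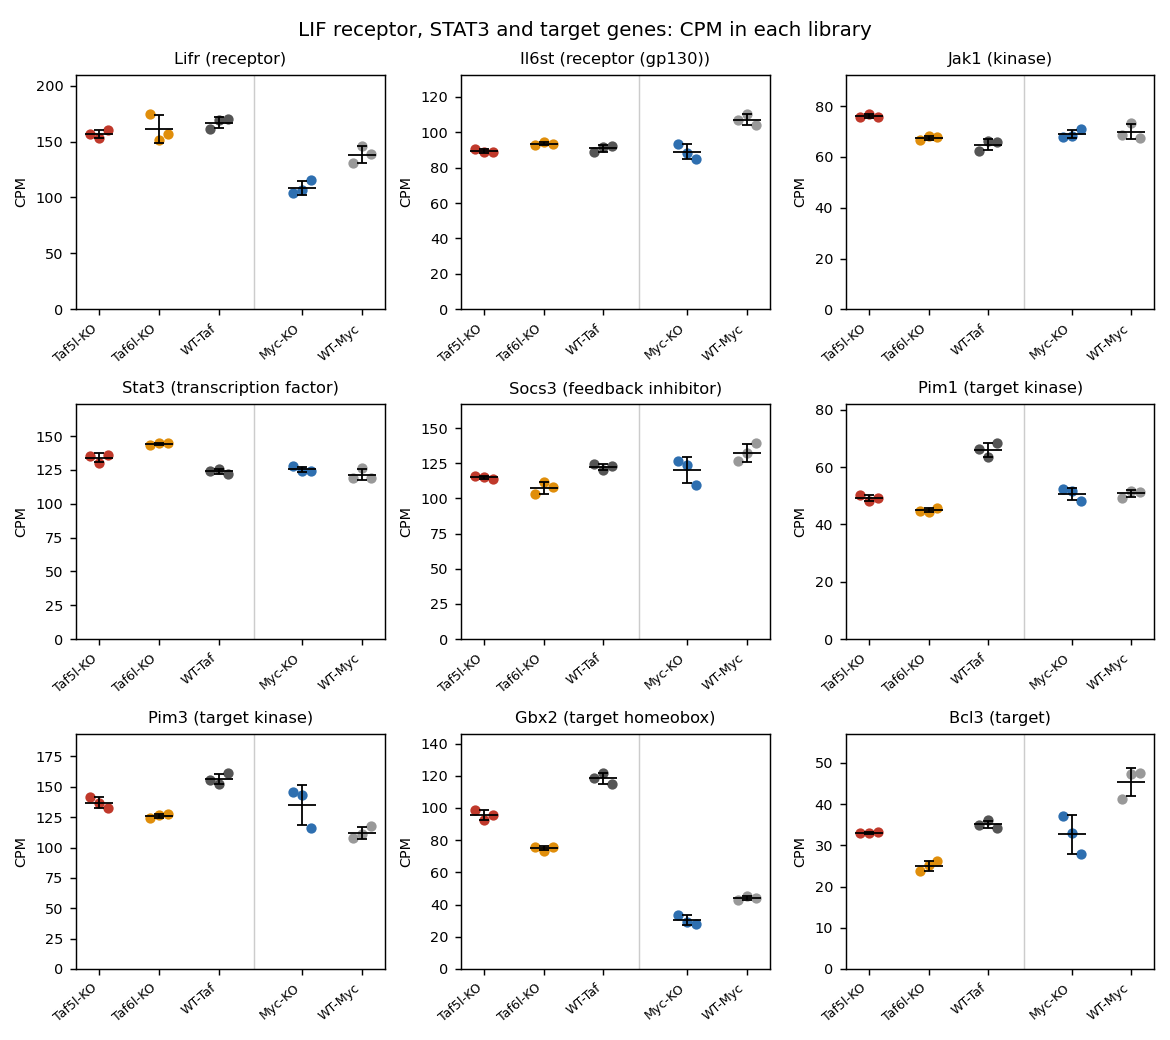
CPM of the 9 genes in each library (points), with the mean and SD of each group (bars, n = 3), for Taf5l-KO, Taf6l-KO and WT-Taf left of the grey line and Myc-KO and WT-Myc right of it; each experiment was scaled by itself. Pim1 lies at 44.2 to 50.1 CPM in the Taf knockouts and at 63.4 to 68.2 CPM in WT-Taf, while Gbx2 lies lower in every knockout than in its own wild type.

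Lifr encodes the chain that binds LIF. It had 157, 153 and 161 CPM in Taf5l-KO and 175, 151 and 157 CPM in Taf6l-KO, against 161, 169 and 170 CPM in WT-Taf. The Taf5l-KO libraries all lay below WT-Taf, by a small margin, and the Taf6l-KO libraries overlapped it. Neither difference passed the test, with log2 fold changes of -0.09 ± 0.05 (SE; edgeR adjusted p = 0.176) and -0.05 ± 0.05 (edgeR adjusted p = 0.440). Without Taf6l-KO replicate 1, the highest library, the value for Taf6l-KO was -0.11 (edgeR adjusted p = 0.0369). In Myc-KO, Lifr had 104, 107 and 116 CPM, against 130, 146 and 138 CPM in WT-Myc. Every Myc-KO library was below every wild-type library, and Lifr fell by 0.35 ± 0.06 on the log2 scale (edgeR adjusted p = 0.00500). On the deposited FPKM and normalized counts the fall was larger, with values from -0.54 to -0.56 (limma adjusted p from 0.00274 to 0.0144).

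Il6st encodes gp130, the chain that the receptors of the IL-6 family share. It had 90.4, 88.5 and 88.8 CPM in Taf5l-KO and 92.7, 94.4 and 93.4 CPM in Taf6l-KO, against 88.7, 91.5 and 92.3 CPM in WT-Taf. The Taf6l-KO libraries lay just above WT-Taf and the Taf5l-KO libraries overlapped it, and neither difference passed (edgeR adjusted p = 0.329 for Taf6l-KO, with a log2 fold change of 0.04, and 0.586 for Taf5l-KO). With library totals as scaling, the value for Taf6l-KO was 0.11 and passed (edgeR adjusted p = 0.0340). The median of all tested genes was 0.09 in that setting. In Myc-KO it had 93.3, 88.2 and 85.0 CPM, against 107, 110 and 104 CPM in WT-Myc. All Myc-KO libraries were below WT-Myc, a fall of 0.27 ± 0.06 on the log2 scale (edgeR adjusted p = 0.00784). On the deposited FPKM this last call was lost, with limma adjusted p = 0.0631 on log2(FPKM + 1).

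Jak1 encodes a kinase bound to gp130. It had 75.8, 77.0 and 75.6 CPM in Taf5l-KO and 66.5, 68.2 and 67.8 CPM in Taf6l-KO, against 62.4, 66.3 and 65.7 CPM in WT-Taf. Taf5l-KO was clearly above WT-Taf, with a log2 fold change of 0.23 ± 0.04 (edgeR adjusted p = 0.000160), and Taf6l-KO just above it, with 0.06 ± 0.04 (edgeR adjusted p = 0.218). The value for Taf6l-KO was 0.13 and passed with library totals (edgeR adjusted p = 0.0223), where the median of all tested genes was 0.09. On the deposited FPKM and normalized counts the value for Taf6l-KO was -0.06. The rise in Taf5l-KO was 0.10 on the deposited FPKM and normalized counts and did not pass there (limma adjusted p from 0.486 to 0.575). In Myc-KO, Jak1 had 68.0, 68.1 and 70.9 CPM, against 68.8, 73.2 and 67.5 CPM in WT-Myc. These groups overlapped (log2 fold change -0.02 ± 0.05, edgeR adjusted p = 0.832), and the sign of this value changed under several settings.

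Stat3 encodes the transcription factor that carries the signal to the nucleus. It had 135, 130 and 136 CPM in Taf5l-KO and 143, 145 and 145 CPM in Taf6l-KO, against 124, 126 and 122 CPM in WT-Taf. Both knockouts lay above WT-Taf in every library, and Taf6l-KO above Taf5l-KO. Stat3 rose by 0.22 ± 0.03 on the log2 scale in Taf6l-KO (edgeR adjusted p = 7.49e-05) and by 0.11 ± 0.03 in Taf5l-KO (edgeR adjusted p = 0.0136). The smaller rise did not pass without WT-Taf replicate 3 (edgeR adjusted p = 0.0570), with DESeq2 (adjusted p = 0.0674), with library totals as scaling (edgeR adjusted p = 0.107), in 1 fit of all 15 libraries (edgeR adjusted p = 0.0680) or on FPKM and normalized counts (limma adjusted p from 0.357 to 0.435). In Myc-KO, Stat3 had 128, 125 and 124 CPM, against 119, 126 and 119 CPM in WT-Myc. The groups overlapped and the difference did not pass (log2 fold change 0.05 ± 0.05, edgeR adjusted p = 0.495).

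Stat3 and Socs3 both lie on chromosome 11, which as a whole was higher in Taf6l-KO. The median log2 fold change of its 1300 tested genes was 0.16 in Taf6l-KO, where 39.1% were called higher and 6.46% lower, and -0.06 in Taf5l-KO. Stat3 in Taf6l-KO was 0.05 above the median of its chromosome, with 60.3% of the chromosome's genes below it. In Taf5l-KO it was 0.17 above the median, with 74.5% of the genes below. Socs3 in Taf6l-KO was 0.35 below the median of its chromosome, with 10.7% of the genes below it. How far the shift of the chromosome takes part in these values was not tested.

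**Figure D2:**
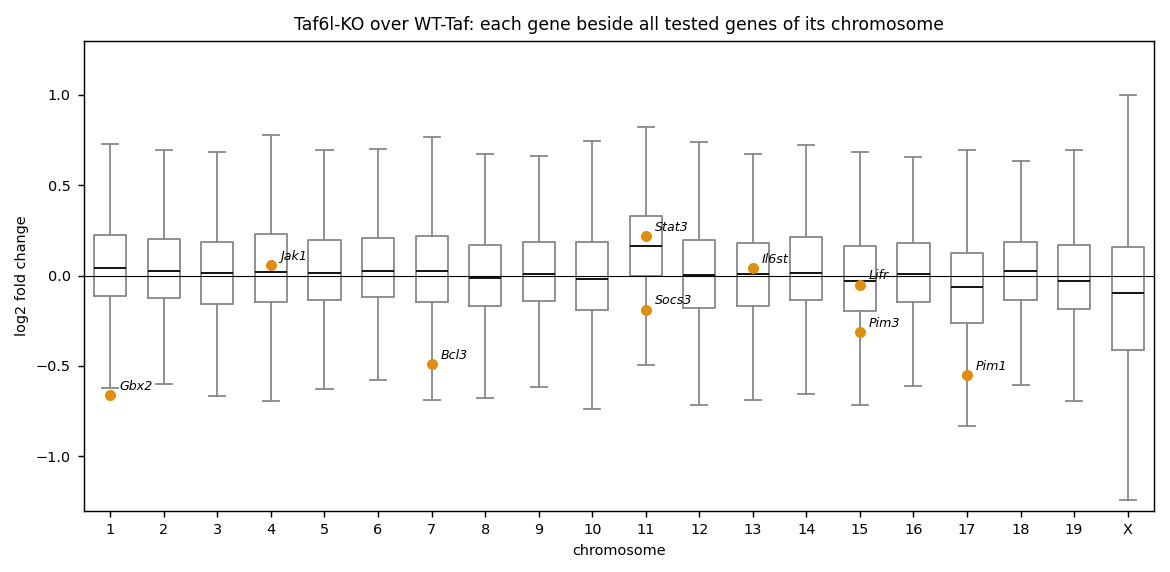
Log2 fold change of Taf6l-KO over WT-Taf for each of the 9 genes (orange points) at its chromosome, beside boxes for all tested genes of that chromosome (line, median; box, quartiles; whiskers, the most distant gene within 1.5 box lengths). The median of chromosome 11 is 0.16, Stat3 at 0.22 lies within its box and Socs3 at -0.19 below it.

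Socs3 encodes the feedback inhibitor, and of the 9 genes it was the only one whose promoter held the palindromic STAT motif TTCNNNGAA. Promoters came from RefSeq (GRCm38.p6) as windows of 300 bases, 250 before the annotated start and 50 after it, and all 9 genes matched, with 11 promoters. Windows were searched for TTCNNNGAA and for CACGTG, the E-box bound by MYC and related factors. Both motifs read alike on either strand and their letters cannot overlap each other. Over all 32851 promoters, 8.30% held TTCNNNGAA and 7.15% held CACGTG. The Socs3 match begins at position -154, counted from the start, and is in capitals in the window at chr11:117969317-117969616 (GRCm38.p6, minus strand), which is shown because it carries this match.
Socs3: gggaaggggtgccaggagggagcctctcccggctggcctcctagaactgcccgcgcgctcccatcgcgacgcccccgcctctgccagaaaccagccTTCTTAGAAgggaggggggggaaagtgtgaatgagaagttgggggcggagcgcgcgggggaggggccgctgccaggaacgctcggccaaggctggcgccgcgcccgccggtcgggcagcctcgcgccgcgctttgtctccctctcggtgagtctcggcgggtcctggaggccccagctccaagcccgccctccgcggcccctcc
A match describes the letters and shows no binding, and a window without one says nothing about STAT3 at that gene.

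Socs3 had 116, 115 and 114 CPM in Taf5l-KO and 103, 111 and 108 CPM in Taf6l-KO, against 125, 120 and 123 CPM in WT-Taf. All libraries of both knockouts lay below WT-Taf, with Taf6l-KO the lowest. Socs3 fell by 0.19 ± 0.03 on the log2 scale in Taf6l-KO (edgeR adjusted p = 0.000641), and the difference of -0.09 ± 0.03 in Taf5l-KO just missed the threshold (edgeR adjusted p = 0.0548). The value for Taf5l-KO passed without Taf6l-KO replicate 1 (edgeR adjusted p = 0.0391) and with library totals, RLE scaling or scaling without chromosomes 11, 14, X and Y (edgeR adjusted p from 0.0375 to 0.0449). The fall in Taf6l-KO was 0.12 with library totals (log2 fold change -0.12, edgeR adjusted p = 0.0308), and it missed the threshold on either FPKM scale (limma adjusted p = 0.0549 and 0.0543). In Myc-KO, Socs3 had 126, 124 and 110 CPM, against 126, 132 and 139 CPM in WT-Myc. These groups overlapped at 126 CPM and the difference of -0.14 ± 0.07 did not pass (edgeR adjusted p = 0.150).

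Among the 9 genes, Pim1 and Gbx2 fell most in both Taf knockouts. The E-box CACGTG, held by 7.15% of all promoters, was found in a promoter of these genes and of no other of the 9. Pim1 has a pair of RefSeq promoters, and the match lies in the second, at position -58 in chr17:29492835-29493134 (GRCm38.p6, plus strand). In Gbx2 it begins at -74 in chr1:89931127-89931426 (GRCm38.p6, minus strand). Both windows are shown with the E-box in capitals, because they carry this match. In Myc-KO the log2 fold change was -0.00 for Pim1 and -0.55 for Gbx2. A match shows no binding, and whether the E-box takes part in any of these changes was not tested.
Pim1, second promoter: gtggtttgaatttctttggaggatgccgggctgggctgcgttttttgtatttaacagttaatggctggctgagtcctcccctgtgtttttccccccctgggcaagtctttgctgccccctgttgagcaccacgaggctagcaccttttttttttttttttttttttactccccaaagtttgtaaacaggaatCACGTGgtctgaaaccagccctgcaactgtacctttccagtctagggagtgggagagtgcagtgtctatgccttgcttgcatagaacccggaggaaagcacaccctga
Gbx2: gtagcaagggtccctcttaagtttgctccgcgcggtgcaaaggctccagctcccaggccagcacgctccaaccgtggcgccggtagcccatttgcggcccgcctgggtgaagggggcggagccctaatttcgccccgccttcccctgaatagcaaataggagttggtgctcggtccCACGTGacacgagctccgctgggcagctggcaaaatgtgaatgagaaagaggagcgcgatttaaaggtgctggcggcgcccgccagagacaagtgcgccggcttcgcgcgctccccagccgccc

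Pim1 encodes a serine and threonine kinase that favours survival and growth. It had 50.1, 48.1 and 49.2 CPM in Taf5l-KO and 44.8, 44.2 and 45.8 CPM in Taf6l-KO, against 66.4, 63.4 and 68.2 CPM in WT-Taf. All libraries of both knockouts were far below WT-Taf and close to each other. Pim1 fell by 0.42 ± 0.04 on the log2 scale in Taf5l-KO (edgeR adjusted p = 1.67e-06) and by 0.55 ± 0.04 in Taf6l-KO (edgeR adjusted p = 9.29e-08). In Myc-KO it had 52.3, 51.5 and 48.3 CPM, against 49.4, 51.8 and 51.3 CPM in WT-Myc. The groups overlapped, and the log2 fold change was -0.00 ± 0.06 (edgeR adjusted p = 0.960), with a sign that changed under many settings.

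Pim3 encodes a closely related kinase. It had 141, 137 and 133 CPM in Taf5l-KO and 124, 127 and 127 CPM in Taf6l-KO, against 156, 153 and 161 CPM in WT-Taf. Taf6l-KO was lowest, Taf5l-KO lay between, and no groups overlapped. Pim3 fell by 0.19 ± 0.03 on the log2 scale in Taf5l-KO (edgeR adjusted p = 0.000520) and by 0.31 ± 0.03 in Taf6l-KO (edgeR adjusted p = 6.01e-06). The first of these just missed the threshold when all 15 libraries shared 1 fit (edgeR adjusted p = 0.0526). In Myc-KO it had 146, 144 and 116 CPM, against 107, 111 and 117 CPM in WT-Myc. Myc-KO libraries 1 and 2 were high and library 3 lay within the wild-type range. The log2 fold change of 0.27 ± 0.09 was at the threshold (edgeR adjusted p = 0.0495), and it did not pass when Myc-KO replicate 1 or 2 or any single WT-Myc replicate was left out (edgeR adjusted p from 0.0779 to 0.151). Nor did it pass on either FPKM scale (limma adjusted p = 0.0625 and 0.0613), with rows summed per symbol or with scaling without chromosomes 11, 14, X and Y (edgeR adjusted p = 0.0510 and 0.0561). Without Myc-KO replicate 3, the low library, the value was 0.39 and passed (edgeR adjusted p = 0.000302).

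Gbx2 encodes a homeobox transcription factor. It had 98.5, 92.8 and 95.7 CPM in Taf5l-KO and 75.9, 73.4 and 75.5 CPM in Taf6l-KO, against 119, 122 and 115 CPM in WT-Taf. The order was the same in all libraries, with Taf6l-KO lowest and WT-Taf highest. Gbx2 fell by 0.31 ± 0.04 on the log2 scale in Taf5l-KO (edgeR adjusted p = 1.09e-05) and by 0.66 ± 0.04 in Taf6l-KO (edgeR adjusted p = 5.96e-09), where 2.59% of the tested genes of chromosome 1 lay below it. In Myc-KO it had 33.6, 29.0 and 28.1 CPM, against 43.0, 45.3 and 44.3 CPM in WT-Myc. All Myc-KO libraries were below WT-Myc, a fall of 0.55 ± 0.08 (edgeR adjusted p = 0.00127). Gbx2 was the only one of the 9 genes to fall past the threshold in all 3 knockouts.

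Bcl3 had 33.0, 33.0 and 33.3 CPM in Taf5l-KO and 23.8, 25.2 and 26.1 CPM in Taf6l-KO, against 35.0, 36.1 and 34.2 CPM in WT-Taf. Taf6l-KO was far below the other groups, and Taf5l-KO slightly below WT-Taf in all libraries. Bcl3 fell by 0.49 ± 0.05 on the log2 scale in Taf6l-KO (edgeR adjusted p = 2.18e-06), while the difference in Taf5l-KO was -0.09 ± 0.05 (edgeR adjusted p = 0.180). In Myc-KO it had 37.1, 33.0 and 27.8 CPM, against 41.4, 47.3 and 47.5 CPM in WT-Myc. The groups did not overlap, and Bcl3 fell by 0.48 ± 0.11 (edgeR adjusted p = 0.0117). The fall in Myc-KO did not pass without WT-Myc replicate 2 (edgeR adjusted p = 0.0523) or on either FPKM scale (limma adjusted p = 0.0581 and 0.0560). Myc-KO library 3 was the lowest Myc-KO library for Il6st, Stat3, Socs3, Pim1, Pim3, Gbx2 and Bcl3, and the highest for Lifr and Jak1.

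**Figure D3:**
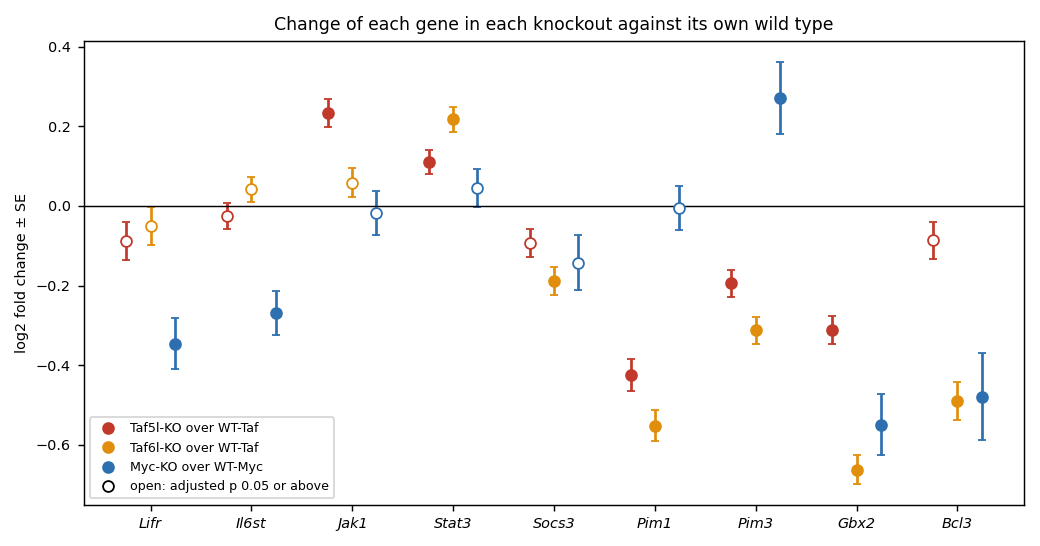
Log2 fold change (y axis, points with SE) of the 9 genes (x axis) in Taf5l-KO over WT-Taf (red), Taf6l-KO over WT-Taf (orange) and Myc-KO over WT-Myc (blue), from edgeR with 3 libraries per group; open points have an adjusted p of 0.05 or above. Pim1 is at -0.42 and -0.55 in the Taf knockouts and at -0.00 in Myc-KO, while Lifr and Il6st are at -0.35 and -0.27 in Myc-KO and near 0 in the Taf knockouts.

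Set directly against each other, the Taf knockouts differed most in Bcl3 and Gbx2, both lower in Taf6l-KO. In Taf6l-KO against Taf5l-KO, 1 of the 9 genes was higher and 5 were lower, where 18.7% of all tested genes passed, 8.55% higher and 10.1% lower. All 3 Taf6l-KO libraries lay below all 3 Taf5l-KO libraries for 6 genes and above them for 2, beside 17.5% and 17.2% of all tested genes. Bcl3 had a log2 fold change of -0.40 ± 0.05 (edgeR adjusted p = 8.46e-05), Gbx2 -0.35 ± 0.04 (edgeR adjusted p = 2.73e-05) and Jak1 -0.17 ± 0.03 (edgeR adjusted p = 0.00302). On the FPKM scales the call was lost for Bcl3, at -0.29 and -0.30 (limma adjusted p = 0.0780 and 0.0772), and for Jak1, at -0.16 (limma adjusted p = 0.431 and 0.429, and 0.313 on normalized counts). Pim1 (-0.13), Pim3 (-0.12) and Stat3 (0.11) passed with edgeR adjusted p-values of 0.0410, 0.0262 and 0.0250. Chromosome 11, which holds Stat3, had a median of 0.21 in this comparison, with 41.6% of its tested genes called higher. Stat3 was 0.10 below that median, with 27.8% of the chromosome's genes below it, and the part of the shift was not tested. The calls for Pim1, Pim3 and Stat3 depended on single libraries and on the settings. Stat3 did not pass when Taf5l-KO replicate 2 or any single Taf6l-KO replicate was left out (edgeR adjusted p from 0.0504 to 0.104), nor Pim3 when Taf5l-KO replicate 1 or 2 or any single Taf6l-KO replicate was left out (0.0627 to 0.0830). Pim1 did not pass when any single Taf5l-KO or Taf6l-KO replicate or WT-Taf replicate 1 was left out (0.0550 to 0.116). In 1 fit of all 15 libraries and on FPKM and normalized counts, Stat3, Pim1 and Pim3 did not pass (adjusted p from 0.0827 to 0.363). Pim1 and Stat3 also did not pass with DESeq2 (adjusted p = 0.157 and 0.0977) or with no filter (edgeR adjusted p = 0.0650 and 0.0990). Neither passed in a fit of only the groups compared (edgeR adjusted p = 0.0569 and 0.0556). With scaling without chromosomes 11, 14, X and Y, Pim1 and Pim3 did not pass (edgeR adjusted p = 0.0712 and 0.0507). With library totals as scaling, Jak1, Pim1 and Pim3 did not pass, at -0.08, -0.04 and -0.03, Stat3 was 0.20, and Il6st passed at 0.16 (edgeR adjusted p = 0.00731). With TMM scaling, Lifr (0.04), Il6st (0.07) and Socs3 (-0.10) did not pass (edgeR adjusted p = 0.637, 0.157 and 0.0681). With library totals the median of all tested genes in this comparison was 0.10. Socs3 passed without Taf6l-KO replicate 2, at -0.12 (edgeR adjusted p = 0.0480), and with protein-coding genes only (edgeR adjusted p = 0.0470), and without Taf6l-KO replicate 1 Lifr was at -0.03 (edgeR adjusted p = 0.711).

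The difference between a Taf effect and the Myc effect was tested in 1 fit of all 15 libraries, as an interaction, in which the experiments also differ in their share of small RNAs. For Taf5l, 3 of the 9 genes had a higher and 2 a lower effect than in Myc-KO, where 32.1% of the 16286 tested genes passed, 15.7% higher and 16.4% lower. For Taf6l, 2 had a higher and 2 a lower effect, where 34.8% of all tested genes passed, 17.1% higher and 17.7% lower. Pim1 and Pim3 had the largest differences. The Pim1 effect was lower by 0.46 ± 0.07 on the log2 scale for Taf5l (edgeR adjusted p = 0.000102) and by 0.59 ± 0.07 for Taf6l (edgeR adjusted p = 8.04e-06), and the Pim3 effect by 0.51 (edgeR adjusted p = 0.00133) and by 0.63 (edgeR adjusted p = 0.000203).

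The receptor chains went the other way. For Il6st the difference was 0.20 for Taf5l (edgeR adjusted p = 0.0217) and 0.27 for Taf6l (edgeR adjusted p = 0.00307). For Lifr it was 0.25 for Taf6l (edgeR adjusted p = 0.0220) and 0.22 for Taf5l (edgeR adjusted p = 0.0512). On FPKM and normalized counts the Lifr differences were larger and passed, at 0.48 to 0.49 for Taf5l (limma adjusted p from 0.00549 to 0.0146) and 0.52 to 0.53 for Taf6l (limma adjusted p from 0.00288 to 0.00862). The value for Taf5l passed in 9 of the 12 settings that kept all libraries. Leaving out single libraries moved some of these calls. Il6st for Taf5l did not pass without WT-Taf replicate 1 or WT-Myc replicate 2 (0.0547 and 0.0576), with library totals (0.0574), with no filter (0.0833) or on log2(FPKM + 0.1) (limma, 0.0517), nor Lifr for Taf6l without Taf6l-KO replicate 1, WT-Taf replicate 1 or WT-Myc replicate 2 (0.0572 to 0.0644). Lifr for Taf5l passed without Taf6l-KO replicate 1 or 2, Myc-KO replicate 3 or WT-Myc replicate 1 (0.0168 to 0.0446).

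For Jak1 the difference was 0.21 for Taf5l (edgeR adjusted p = 0.0106) and 0.04 for Taf6l (edgeR adjusted p = 0.670). The call for Taf5l was lost with no filter (edgeR adjusted p = 0.0721) and on FPKM and normalized counts, where the value was 0.10 to 0.11 (limma adjusted p from 0.569 to 0.614). For Bcl3 it was 0.35 for Taf5l (edgeR adjusted p = 0.0432), which did not pass when any single library other than Taf6l-KO replicate 1, Myc-KO replicate 1 or WT-Myc replicate 1 was left out (0.0506 to 0.0970), and -0.05 for Taf6l (edgeR adjusted p = 0.802). Nor did the Bcl3 value for Taf5l pass with library totals, with the replicate block or in a fit of only the groups compared (edgeR adjusted p = 0.0651, 0.0622 and 0.0521). It was also lost on FPKM and normalized counts (limma adjusted p from 0.226 to 0.276). The Gbx2 effect was not called different, with 0.20 for Taf5l (edgeR adjusted p = 0.0918) and -0.15 for Taf6l (edgeR adjusted p = 0.187). It passed for Taf5l without Myc-KO replicate 1 (0.29, edgeR adjusted p = 0.00380) and with protein-coding genes only (edgeR adjusted p = 0.0465), and without Myc-KO replicate 3 for Taf6l (-0.22, edgeR adjusted p = 0.0303). Stat3 had 0.02 for Taf5l and 0.13 for Taf6l (edgeR adjusted p = 0.794 and 0.0703), and the second passed without Myc-KO replicate 1 (0.0486), with library totals (0.20, edgeR adjusted p = 0.0206) and with scaling without chromosomes 11, 14, X and Y (0.0368). Socs3 had 0.01 and -0.09 (edgeR adjusted p = 0.962 and 0.452).

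Levels of different genes were compared per kilobase of the longest coding transcript in GENCODE M21. The order rests on that length, and the deposited FPKM imply other lengths for some of the 9 genes. In WT-Taf the order was Pim3 (64.5 CPM per kilobase), Gbx2 (55.5), Socs3 (48.0), Pim1 (24.5), Stat3 (20.5), Bcl3 (19.0), Lifr (17.3), Jak1 (13.2) and Il6st (10.5). Il6st was the lowest of the 9 per kilobase in every group, and Pim3 and Socs3 were among the 3 highest in every group. Gbx2 ranked 3 in both Taf knockouts, with 44.8 CPM per kilobase in Taf5l-KO and 35.1 in Taf6l-KO, and 2 in WT-Taf. It ranked 6 in Myc-KO (14.2) and 4 in WT-Myc (20.7). Neighbours such as Gbx2 and Socs3 in Taf5l-KO (44.8 and 45.0), or Lifr and Pim1 in Taf6l-KO (16.7 and 16.7), were within the spread of the libraries.

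The wild types of the experiments also differed in some of the 9 genes, given here as levels scaled over all 15 libraries, with no test since the libraries of the experiments differ as a whole. Gbx2 averaged 122 ± 3.31 CPM in WT-Taf and 42.1 ± 1.28 CPM in WT-Myc (SD, n = 3 each), a ratio of 2.90. The ratio was 1.51 for Pim3, 1.41 for Pim1 and 1.31 for Lifr. The other 5 genes had ratios from 0.837 for Bcl3 to 1.10 for Stat3, with Socs3 at 1.00 and Jak1 at 1.00.

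The wider pathway was described by 4 lists with 62 genes, of which 61 were in the table and 55 were tested. In Taf5l-KO 12 were higher and 10 lower, 40% of those tested beside 33.2% of all genes. In Taf6l-KO 16 were higher and 18 lower, 61.8% beside 37.2%, and in Myc-KO 10 were higher and 16 lower, 47.3% beside 34.8%. With DESeq2 the count in Taf6l-KO was 22, where 30% of all genes with an adjusted p passed. With limma on either FPKM scale that count was 10, where 17.1% of all genes passed. Leaving out single libraries gave 17 to 22 genes in Taf5l-KO, 25 to 33 in Taf6l-KO and 19 to 30 in Myc-KO. In these fits 26.3% to 32.4%, 30.6% to 37.4% and 22.8% to 40% of all tested genes passed. The median log2 fold change of the 55 genes was 0.03 in Taf5l-KO, 0.01 in Taf6l-KO and 0.03 in Myc-KO, beside 0.00, 0.02 and -0.00 over all tested genes.

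Among the ligands and other receptor chains, 6 of 11 genes were tested, and Clcf1, Osm, Il6, Il11 and Osmr were too low. In Taf5l-KO 1 was higher and 1 lower, in Taf6l-KO 1 was higher and 2 lower, and in Myc-KO 1 was higher and 1 lower, or 33.3%, 50% and 33.3% of those tested beside 33.2%, 37.2% and 34.8% of all genes. Lif, the gene of the ligand that was also added to the medium, had 3.15, 2.65 and 3.34 CPM in Taf5l-KO and 4.01, 4.97 and 4.87 CPM in Taf6l-KO, against 2.43, 2.19 and 1.96 CPM in WT-Taf. It was low in every group of that experiment, and it rose in Taf5l-KO by 0.46 ± 0.17 on the log2 scale (edgeR adjusted p = 0.0445) and in Taf6l-KO by 1.06 ± 0.15 (edgeR adjusted p = 8.91e-05), where its chromosome 11 was higher too. In Myc-KO, Lif had 4.93, 4.18 and 3.17 CPM, against 11.4, 13.7 and 13.4 CPM in WT-Myc. All Myc-KO libraries were far below WT-Myc, and Lif fell by 1.65 ± 0.16 (edgeR adjusted p = 0.000245).

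Il6ra, the receptor of IL-6, had 0.772, 1.12 and 0.887 CPM in Taf5l-KO and 1.31, 0.938 and 1.06 CPM in Taf6l-KO, against 1.40, 1.94 and 1.96 CPM in WT-Taf. It fell by 0.91 in Taf5l-KO (edgeR adjusted p = 0.0111) and by 0.67 in Taf6l-KO (edgeR adjusted p = 0.0385), and it rose by 0.65 in Myc-KO (edgeR adjusted p = 0.0364), with 3.76, 3.25 and 2.52 CPM in Myc-KO and 2.11, 1.71 and 2.23 CPM in WT-Myc. Il6ra was near 1 CPM in the Taf knockouts, so these folds rest on few counts. Cntfr, the receptor of ciliary neurotrophic factor, fell in Taf6l-KO by 0.46 (edgeR adjusted p = 0.00107).

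All 9 of the other JAK and STAT genes were tested. In Taf5l-KO 3 were higher and 0 lower, in Taf6l-KO 5 higher and 1 lower, and in Myc-KO 2 higher and 1 lower. These are 33.3%, 66.7% and 33.3% of the list, near the shares over all genes (33.2% and 34.8%) in Taf5l-KO and Myc-KO and beside 37.2% in Taf6l-KO. Jak2, a further kinase of cytokine receptors, had 10.9, 12.3 and 9.97 CPM in Taf5l-KO and 12.2, 10.9 and 12.3 CPM in Taf6l-KO, against 6.36, 7.66 and 7.51 CPM in WT-Taf. It was above the wild type in all libraries of every knockout, and rose by 0.63 in Taf5l-KO (edgeR adjusted p = 0.000388), by 0.72 in Taf6l-KO (edgeR adjusted p = 8.20e-05) and by 0.95 in Myc-KO (edgeR adjusted p = 0.00701). Its levels in the Myc experiment were 5.78, 5.63 and 8.18 CPM in Myc-KO, against 4.06, 3.19 and 2.99 CPM in WT-Myc. Jak3, the kinase of receptors with the common gamma chain, rose by 0.53 in Taf5l-KO (edgeR adjusted p = 2.20e-06) and by 0.34 in Taf6l-KO (edgeR adjusted p = 0.000110). Stat4 rose by 0.21, 0.19 and 0.56 in Taf5l-KO, Taf6l-KO and Myc-KO (edgeR adjusted p = 0.0355, 0.0472 and 0.00164). Stat5a, on chromosome 11 with its median of 0.16, rose by 0.47 in Taf6l-KO, while Stat6 fell there by 0.13 and in Myc-KO by 0.33 (edgeR adjusted p = 0.0152, 0.0301 and 0.00283 in this order).

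Of the negative regulators and adaptors, 17 of 18 were tested, and Ptprc was too low. In Taf5l-KO 2 were higher and 2 lower, in Taf6l-KO 4 higher and 6 lower, and in Myc-KO 2 higher and 6 lower. These are 23.5%, 58.8% and 47.1% of those tested, beside 33.2%, 37.2% and 34.8% of all genes. Socs2, an inhibitor of growth hormone signalling, had 48.0, 50.9 and 49.6 CPM in Taf5l-KO and 43.1, 44.9 and 46.5 CPM in Taf6l-KO, against 64.9, 65.7 and 68.4 CPM in WT-Taf. It fell in all 3 knockouts, by 0.42 in Taf5l-KO (edgeR adjusted p = 3.09e-06), by 0.56 in Taf6l-KO (edgeR adjusted p = 1.25e-07) and by 0.35 in Myc-KO (edgeR adjusted p = 0.0223). Socs5 fell by 0.39 in Taf6l-KO and by 0.81 in Myc-KO (edgeR adjusted p = 0.00373 and 0.000783). Socs4 fell by 1.00 in Myc-KO (edgeR adjusted p = 0.000114), with 14.7, 14.6 and 16.4 CPM in Myc-KO and 32.8, 30.4 and 28.2 CPM in WT-Myc. It lies on chromosome 14, whose 483 tested genes had a median log2 fold change of -0.32 in Myc-KO, with 237 called lower, and the part of that shift was not tested.

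Pias2, a SUMO ligase of the family that binds STAT proteins, fell by 0.26 in Taf5l-KO and by 0.21 in Taf6l-KO (edgeR adjusted p = 0.000192 and 0.000841). Ptpn6, which encodes the phosphatase SHP-1, rose by 0.30 and 0.35 in Taf5l-KO and Taf6l-KO (edgeR adjusted p = 0.00938 and 0.00249). Gab1, an adaptor between receptors and the PI3-kinase and ERK pathways, had 326, 331 and 367 CPM in Myc-KO, against 447, 453 and 434 CPM in WT-Myc. It fell there by 0.38 (edgeR adjusted p = 0.00160) and rose by 0.10 in Taf5l-KO and 0.13 in Taf6l-KO (edgeR adjusted p = 0.0268 and 0.00671). Ptpn11, which encodes SHP-2, fell by 0.20 in Myc-KO (edgeR adjusted p = 0.0154), and Grb2, the adaptor to RAS, rose there by 0.22 and in Taf6l-KO by 0.13 (edgeR adjusted p = 0.00607 and 0.0204), where the median of its chromosome 11 was 0.16. The other called genes of this list were Socs6, Pias3 and Pias4, lower in Taf6l-KO, Ptpn2, higher there, Socs7, lower in Myc-KO, and Cish, higher there.

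Of the 24 other STAT3 targets, 23 were tested. In Taf5l-KO 6 were higher and 7 lower, in Taf6l-KO 6 higher and 9 lower, and in Myc-KO 5 higher and 8 lower. These are 56.5%, 65.2% and 56.5% of those tested, beside 33.2%, 37.2% and 34.8% of all genes. The 8 lower in Myc-KO include Myc itself, the gene targeted there. The list is a mixture of pluripotency factors, immediate early genes and acute phase factors, and its members did not move as 1 group. Klf4, a pluripotency factor, had 181, 174 and 180 CPM in Taf5l-KO and 188, 184 and 184 CPM in Taf6l-KO, against 274, 278 and 276 CPM in WT-Taf. It fell by 0.63 in Taf5l-KO (edgeR adjusted p = 2.13e-09) and by 0.57 in Taf6l-KO (edgeR adjusted p = 3.29e-09). In Myc-KO it had 360, 364 and 352 CPM, against 288, 300 and 292 CPM in WT-Myc, a rise of 0.29 (edgeR adjusted p = 0.00143).

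Tbx3, a T-box pluripotency factor, fell by 0.36 in Taf5l-KO and by 0.47 in Taf6l-KO and rose by 0.40 in Myc-KO (edgeR adjusted p = 2.97e-07, 1.89e-08 and 0.000275). Klf5, a relative of Klf4, fell by 0.31 in Taf5l-KO, by 0.54 in Taf6l-KO and by 0.21 in Myc-KO (edgeR adjusted p = 2.40e-05, 7.26e-08 and 0.0285), and its chromosome 14 was lower in Myc-KO. Sall4 fell by 0.11, 0.20 and 0.26 in Taf5l-KO, Taf6l-KO and Myc-KO (edgeR adjusted p = 0.0174, 0.000181 and 0.00371). Myc, itself a STAT3 target in these cells, fell by 0.69 in Taf5l-KO and by 0.83 in Taf6l-KO (edgeR adjusted p = 1.89e-07 and 2.50e-08). Gbx2, Klf5 and Sall4 were lower in all 3 knockouts, while Klf4 and Tbx3 were lower in the Taf knockouts and higher in Myc-KO.

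Immediate early and acute phase genes followed other patterns. Fos rose by 0.99 in Taf5l-KO and by 0.82 in Taf6l-KO (edgeR adjusted p = 0.000785 and 0.00280), with 3.03, 2.70 and 3.44 CPM in Taf5l-KO, 2.88, 2.43 and 2.80 CPM in Taf6l-KO and 1.29, 1.54 and 1.83 CPM in WT-Taf. Zfp36, which encodes an RNA-binding protein that shortens the life of cytokine transcripts, rose by 0.97 in Taf5l-KO and by 0.38 in Taf6l-KO (edgeR adjusted p = 5.25e-05 and 0.0376). Pim2, the remaining Pim kinase, rose by 0.40 and 0.41 in Taf5l-KO and Taf6l-KO (edgeR adjusted p = 0.00104 and 0.000622), where Pim1 and Pim3 fell. It had 14.7, 15.5 and 16.3 CPM in Taf5l-KO and 16.5, 14.8 and 15.5 CPM in Taf6l-KO, against 12.6, 11.2 and 11.6 CPM in WT-Taf. Pim2 lies on the X chromosome, whose median was -0.13 in Taf5l-KO and -0.10 in Taf6l-KO.

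In Myc-KO, Cebpd fell by 1.81, Jun by 1.01, Cebpb by 0.74, Junb by 0.73 and Icam1 by 0.64 (edgeR adjusted p = 0.000911, 0.000816, 0.0220, 0.000754 and 0.000137). Cebpd was low, with 0.606, 0.528 and 0.475 CPM in Myc-KO and 1.88, 1.53 and 2.23 CPM in WT-Myc. Sgk1, a kinase of salt and growth control, rose in Myc-KO by 0.62 (edgeR adjusted p = 5.20e-05), and Irf1, an interferon-induced factor, by 0.56 (edgeR adjusted p = 0.00178). In the Taf knockouts, Sgk1 was lower in Taf5l-KO by 0.09 and higher in Taf6l-KO by 0.11 (log2 fold changes -0.09 and 0.11, edgeR adjusted p = 0.0247 and 0.00469). Kdm3a, a histone demethylase gene, rose in all 3 knockouts, by 0.14 in Taf5l-KO, 0.22 in Taf6l-KO and 0.27 in Myc-KO (edgeR adjusted p = 0.0295, 0.00155 and 0.0112). The survival genes Mcl1 and Bcl2l1 passed the test in no knockout.

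**Figure D4:**
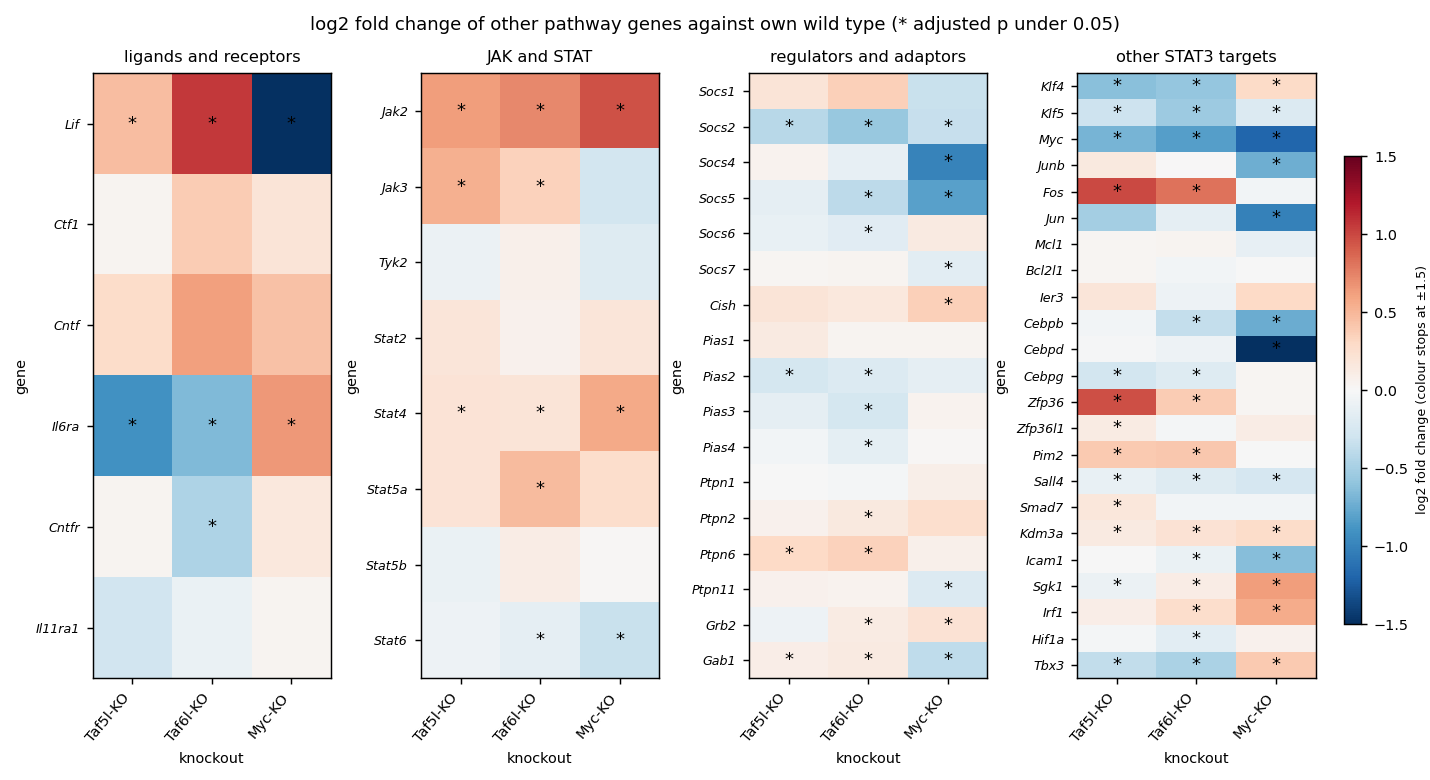
Log2 fold change (colour, red higher and blue lower) of the tested pathway genes (rows, in 4 panels by role, 1 gene not shown) in Taf5l-KO, Taf6l-KO and Myc-KO (columns), each against its own wild type; a star marks an adjusted p under 0.05. Lif is at 0.46 and 1.06 in the Taf knockouts and at -1.65 in Myc-KO, and Klf4 and Tbx3 are blue in the Taf knockouts and red in Myc-KO.

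The genes whose log2 CPM, relative to their own wild type, ran most like each of the 9 over the 15 libraries were found among 9253 genes. They share libraries and wild types with the 9, so Pearson's r is a description. The likest gene to Pim1 was Mybl2 (r = 0.993), with log2 fold changes of -0.52, -0.71 and -0.01 in Taf5l-KO, Taf6l-KO and Myc-KO. The likest to Pim3 was Bcam (r = 0.980), to Gbx2 Lrch4 (0.974), to Bcl3 Tuba1b (0.973) and to Il6st Znrf3 (0.976). The likest to Stat3 was Tnip1 (0.963), also on chromosome 11, to Lifr Birc6 (0.955), to Socs3 Atp5b (0.953) and to Jak1 Ankrd6 (0.949).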

How the data were processed

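Ribosomal RNA-depleted total RNA was sequenced with a strand-specific kit, per the labels' protocols. Build mm9, Salmon 0.8.2 and DESeq2 1.14.1 are listed in the submitters' processing notes with no role for each, and the sources used here name no gene annotation. The deposited files hold estimated counts (whole numbers), normalized counts (a signal on a count scale) and FPKM, as made by the authors. Their TPM table was not used, because none of its 15 columns could be assigned to a sample. Chromosomes and lengths come from GENCODE M21, matched by ID for 32620 genes.

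edgeR 4.0.16, in R 4.3.3, tested the estimated counts by quasi-likelihood (glmQLFit and glmQLFTest after filterByExpr and TMM scaling). P-values were adjusted by Benjamini-Hochberg over all tested genes and called at 0.05. Separate fits held the 9 Taf and the 6 Myc libraries, and interactions used all 15. A standard error is the size of the log2 fold change divided by the square root of F. Biological variation (BCV) came to 4.23% for the Taf libraries and 10.2% for the Myc libraries. CPM are scaled within an experiment. Levels between genes use CPM per kilobase in place of the planned FPKM. Likeness was measured among genes averaging at least 100 counts.

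The alternatives tried were DESeq2 1.42.0, scaling by RLE or by library totals, a fit with no filter, a replicate block, omission of each library in turn, a joint fit of all 15 libraries, fits of only the groups compared, rows summed per symbol, and limma 3.58.1 on log2(FPKM + 1), log2(FPKM + 0.1) (mean FPKM of 0.5 or more) and log2(normalized counts + 1). Protein-coding genes only, and scaling without chromosomes 11, 14, X and Y, were added after seeing the data. The procedure was tested on simulated data. The genes and lists were chosen with earlier results of these data known. The values of 1 pathway gene are not reported here, though it is in the counts. Named were the 9 genes, the targeted genes, listed pathway genes and the 1 likest gene to each of the 9.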

Additional observations from a re-analysis of the deposited data

Results flagged for a closer look

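These results had an effect in a Taf knockout that differed from the effect in Myc-KO in a test of the difference itself (edgeR interaction over 15 libraries, adjusted p under 0.05), for the 9 genes and for pathway genes called in opposite directions. Those pathway genes were picked by their calls in the same libraries, so their passing here adds no separate evidence. All are log2 differences, Taf effect minus Myc effect, and the experiments also differ in their share of small RNAs, whose part was not tested.

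For Taf5l, the differences were -0.46 for Pim1, -0.51 for Pim3, 0.20 for Il6st, 0.21 for Jak1 and 0.35 for Bcl3. The Jak1 and Bcl3 values did not pass on FPKM or normalized counts, nor Jak1 with no filter. Bcl3 also did not pass in 12 of the 15 fits without a library, with library totals, with the replicate block or with only the groups compared. Il6st did not pass in 2 of those 15 fits, with library totals, with no filter or on log2(FPKM + 0.1). For Taf6l, the differences were -0.59 for Pim1, -0.63 for Pim3, 0.27 for Il6st and 0.25 for Lifr. The Lifr value did not pass in 3 of the 15 fits without a library.

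Lif had differences of 2.08 for Taf5l and 2.67 for Taf6l, and Il6ra of -1.60 and -1.36. Klf4 had -0.96 for Taf5l and -0.90 for Taf6l, Tbx3 had -0.80 and -0.91, and Gab1 had 0.44 and 0.47. Sgk1 had -0.75 for Taf5l.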

How the results depend on the processing

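Of 1242 recomputed values of the 9 genes, 1066 kept direction and side of the threshold, 104 lost a call, 29 gained one and 43 changed sign, all of these from values that were not called. The causes were not tested. The replicate numbers did not pair the libraries: correlations of same-numbered deviations ran from -0.08 to 0.10 in the Taf experiment and from -0.63 to -0.21 in the Myc experiment. Pairs with other numbers ran from -0.12 to 0.16 in the Taf experiment and from -0.36 to 0.53 in the Myc experiment. The Myc libraries thus shared variation that did not follow their numbers, and its source was not tested. With the replicate block, 2 of the 9 genes and 17 pathway genes passed in Myc-KO (21% of all genes), Il6st, Bcl3 and Pim3 did not (edgeR adjusted p = 0.0647, 0.0530 and 0.115), and Jak1 was 0.0055 and Pim1 0.018.

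Counts of the 9 genes that passed were 3 in Taf5l-KO with all 15 libraries in 1 fit, and 3 with limma on either FPKM scale or normalized counts (23.8%, 14.5%, 14.6% and 22.1% of all genes). In Taf6l-KO against Taf5l-KO they were 3 in the fit of all 15, 1 on FPKM and 2 on normalized counts (10.1%, 5.07% to 5.08% and 8.93% of all genes). In Myc-KO 2 passed on FPKM (19.9% of all genes). For the Taf5l effect minus the Myc effect 3 passed with library totals, with no filter and on log2(FPKM + 0.1) (31.9%, 17.4% and 19.2% of all genes). Leaving out single libraries, the Taf5l-KO count was 4 to 6 (26.3% to 32.4% of all genes) and the Taf6l-KO count 6 to 7 (30.6% to 37.4%). The count between the Taf knockouts was 3 to 6 (12.7% to 17.3%) and the Myc-KO count 3 to 5 (22.8% to 40%). The interaction counts were 3 to 6 for Taf5l (26.9% to 34.7%) and 3 to 5 for Taf6l (29.8% to 38.2%). Of the pathway genes, 8, 9 and 13 passed in Taf5l-KO on log2(FPKM + 1), log2(FPKM + 0.1) and normalized counts. The shares of all genes there were 14.5%, 14.6% and 22.1%. For Taf6l-KO the same scales gave 10, 10 and 14, beside 17.1%, 17.1% and 25.2% of all genes. DESeq2 and the fit of all 15 each gave 22 for Taf6l-KO (30% and 27.8% of all genes). In Myc-KO 16 passed on either FPKM scale (19.9% of all genes). Leaving out libraries gave 17 to 22, 25 to 33 and 19 to 30 for the knockouts in this order, beside the shares given above for those fits.

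Signs changed as follows. With library totals, Lifr in Taf6l-KO was 0.018, Jak1 in Myc-KO 0.023, Pim1 in Myc-KO 0.036, and the Taf minus Myc differences were -0.014 for Socs3 (Taf5l) and 0.020 for Bcl3 (Taf6l). With no filter, Jak1 in Myc-KO was 0.0042, Pim1 0.017 and Socs3 (Taf5l minus Myc) -0.0013. In the fit of all 15, Jak1 in Myc-KO was 0.014 and Pim1 0.027. On FPKM (either pseudocount) and normalized counts, Jak1 in Taf6l-KO was -0.064 and in Taf6l minus Myc -0.056, Stat3 in Taf5l minus Myc -0.042, Socs3 in Taf6l minus Myc 0.094 on log2(FPKM + 1) and 0.095 on the others, and Pim1 in Myc-KO 0.027 on log2(FPKM + 1) and 0.028 on the others. Pim1 in Myc-KO was 0.013 with RLE scaling, 0.012 with DESeq2, 0.0057 with summed rows and 0.010 with protein-coding genes only. Leaving out single libraries gave -0.027 to 0.079 for Lifr between the Taf knockouts, and in Myc-KO -0.043 to 0.017 for Jak1 and -0.025 to 0.049 for Pim1. For Taf5l minus Myc it gave -0.00078 to 0.047 for Stat3 and -0.063 to 0.056 for Socs3, and for Taf6l minus Myc -0.16 to 0.063 for Bcl3.

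The spread was wider in the Myc experiment (10.2% against 4.23%), which limits the size of difference that can pass there. Library totals moved the median of all genes by under 0.10 in each comparison. It was 0.09 in Taf6l-KO against WT-Taf and 0.10 in Taf6l-KO against Taf5l-KO, as large as some of the differences given above.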

Other observations

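The deposited FPKM do not follow transcript length for some of the 9 genes. The ratio of normalized count to FPKM is 90.0 for Lifr and 3.76 for Stat3, which corresponds to a Stat3 length 23.9 times shorter than that of Lifr, where the longest coding transcripts differ 1.60 times. For Bcl3 the ratio is 29.9 by FPKM and 5.22 by annotation, and for Gbx2 1.04 and 4.52. FPKM were therefore not used to set one gene against another.

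The rise of Jak1 in Taf5l-KO was 0.23 on the log2 scale in estimated counts and 0.10 in the deposited normalized counts of the same libraries.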
